A study of Bos taurus with 34 samples.

Results

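The miR-200 family (bta-miR-200a, bta-miR-200b, bta-miR-200c, bta-miR-141 and bta-miR-429) was followed together with bta-miR-205 and bta-miR-375 in the blood of dairy cows after calving. These 7 miRNAs were taken by name from the 800 bovine miRNA names counted in each library, as miRNAs best known from epithelial cells, and the rule that picks them uses no measured value. The study sampled 17 Bos taurus cows on 2 occasions to ask whether circulating, cell-free miRNAs tell cows with subclinical endometritis (SCE) from healthy ones. In SCE the lining of the uterus is inflamed while the cow looks healthy, and the cows were classed by cytology and biopsies of the endometrium. Libraries of the small RNA fraction were sequenced and reads were counted per mature miRNA.

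The groups were 11 SCE cows at day 45, the same 11 SCE cows at day 25, 6 healthy cows at day 45 and 5 of those 6 healthy cows at day 25. The sample labels give these days, while the design text puts the samplings at 21 and 44 days after calving. The labels also name serum as the tissue and the design text names plasma. No treatment, breed or age is given in the labels used here. For healthy cow 3 the files of both days were identical and bore the day-45 title, so only the day-45 file was kept and 33 of 34 files entered. SCE cows are numbered 7 to 17 and healthy cows 1 to 6, as in the animal labels.

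MicroRNAs are short RNAs that lower the output of messenger RNAs, which they recognise mainly through a seed near their 5′ end. The miR-200 family is known, chiefly from human and mouse cells, for repressing ZEB1 and ZEB2, transcription factors that switch off E-cadherin, and so for keeping epithelial cells in sheets. Within the family miR-200b, miR-200c and miR-429 share a seed, and miR-200a and miR-141 share another that differs from it by a single base. miR-205 is known from stratified and basal epithelia and also acts on ZEB1 and ZEB2 in human cells. miR-375 is known from pancreatic islets, where it limits insulin release in mouse, and from gut and neuroendocrine epithelium.

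The RefSeq gene table for cattle (assembly ARS-UCD2.0, another build than the authors') was used here only for which genes neighbour each other. All 7 miRNA genes were found in it by name among the synonyms. MIR200B, MIR200A and MIR429 lay side by side with no other gene among them, and MIR200C and MIR141 formed a second pair with no gene between them. MIR205 and MIR375 lay apart from both clusters. No other name had counts nearly the same as those of one of the 7 miRNAs, since the closest name by counts still differed by 34.8%.

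Total counts per library ranged from 678389 to 28872153. The range was 678389 to 19747294 for the SCE libraries of day 45, 1343401 to 14085868 for the SCE libraries of day 25, 7398849 to 28872153 for the healthy libraries of day 45 and 7441148 to 23399406 for the healthy libraries of day 25. Both libraries of SCE cow 10 were the shallowest of the study. miR-486, abundant in red blood cells, took a median of 36.5% of counts in SCE cows at day 45, 10.8% in SCE cows at day 25, 48.0% in healthy cows at day 45 and 45.3% in healthy cows at day 25. The numbers in the library titles ran from 31 to 52 for SCE cows and from 13 to 24 for healthy cows, so any order of handling that they stand for cannot be told apart from status.

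The 7 miRNAs made up a small part of what circulated. Summed, they took 0.114% to 1.39% of counts in SCE cows at day 45 (median 0.150%), 0.0935% to 0.893% in SCE cows at day 25 (median 0.165%), 0.0563% to 0.252% in healthy cows at day 45 (median 0.143%) and 0.0457% to 0.286% in healthy cows at day 25 (median 0.118%). The ranges overlapped, and the top of both SCE ranges belonged to cow 9. A share of counts depends on all other miRNAs, miR-486 above all, and in a cell-free sample the amount of RNA released and the number of cells releasing it cannot be told apart.

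Abundance split the 7 miRNAs into steep steps. By mean CPM (counts scaled to a common library total) over libraries, bta-miR-375 ranked 60th and bta-miR-141 ranked 61st of the 800 names. Below them bta-miR-200a ranked 115th, bta-miR-205 ranked 128th and bta-miR-429 ranked 166th. The lowest were bta-miR-200b at rank 281 and bta-miR-200c at rank 327.

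The depth behind these values differed accordingly. bta-miR-141 had 606 to 53141 counts per library (median 5508) and bta-miR-375 had 861 to 42007 (median 5764). bta-miR-200a had 48 to 9299 counts (median 917), bta-miR-205 had 32 to 6950 (median 564) and bta-miR-429 had 4 to 2309 (median 184). All 5 were detected in all 33 libraries.

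bta-miR-200b and bta-miR-200c sat near the limit of detection. bta-miR-200b was detected in 31 of 33 libraries with a median of 14 counts and a highest count of 215, and it reached 10 counts in 23 libraries. bta-miR-200c was detected in 29 of 33 libraries with a median of 10 counts and a highest count of 85, and it reached 10 counts in 17 libraries. bta-miR-200b had no count in SCE cow 8 at day 45 and healthy cow 2 at day 45. bta-miR-200c had none in SCE cow 14 at day 45, healthy cow 3 at day 45, and healthy cows 2 and 4 at day 25. A count of 0 allows a true level of up to 3 counts, which was 0.193 to 0.405 CPM of the library total in these 6 libraries.

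Members of a single gene cluster were far from equal in blood. Over all libraries bta-miR-141 had 706 times the counts of its cluster partner bta-miR-200c, with a ratio of 103 to 3090 in the 29 libraries that held both (median 625.2). In the other cluster bta-miR-200a had 53.7 times the counts of bta-miR-200b, with a ratio of 13.8 to 122 in the 31 libraries that held both (median 45.4), and bta-miR-429 had 10.7 times the counts of bta-miR-200b. bta-miR-141 exceeded bta-miR-200c, and bta-miR-200a exceeded both bta-miR-429 and bta-miR-200b, in 33 of 33 libraries. Ligation and PCR yields differ between sequences, so these ratios are of reads and not of molecules.

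The make-up of the family was uneven in every library. bta-miR-141 was 73.4% to 94.3% of the family's counts in a library (median 86.4%). Together with bta-miR-200a, which carries the same seed, it was 93.5% to 99.7% (median 97.3%). The family members with the other seed, bta-miR-200b, bta-miR-200c and bta-miR-429, shared the remainder. By group the median share of bta-miR-141 was 86.5% in SCE cows at day 45, 84.0% in SCE cows at day 25, 89.4% in healthy cows at day 45 and 89.0% in healthy cows at day 25.

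**Figure D1:**
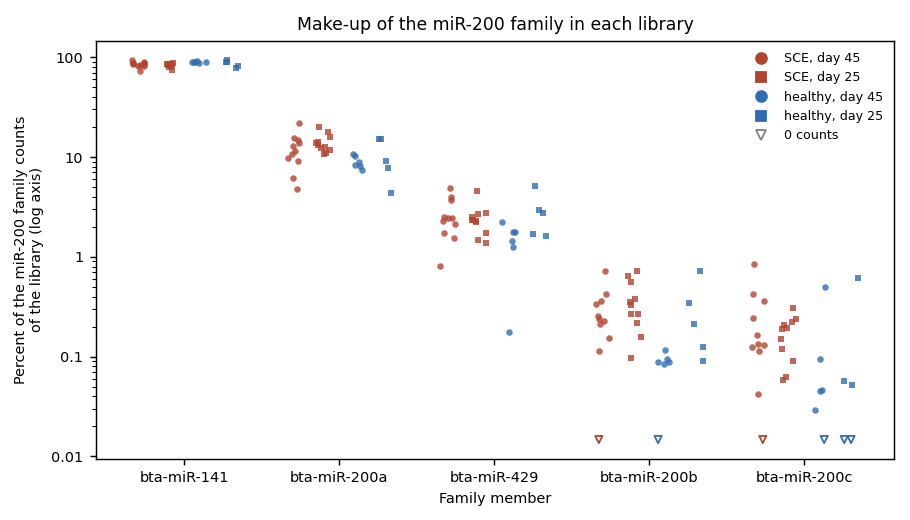
Share of each miR-200 family member in the family's counts of a library, in percent on a log axis, with 1 point per library and colours and shapes for status and day. bta-miR-141 lies between 73.4% and 94.3% in all 33 libraries, bta-miR-200a comes next, and open triangles at the bottom mark libraries with no count.

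At the top of the order bta-miR-141 and bta-miR-375 changed places between libraries. bta-miR-141 was above bta-miR-375 in 15 of 33 libraries, namely 4 of 11 SCE libraries of day 45, 6 of 11 SCE libraries of day 25, 4 of 6 healthy libraries of day 45 and 1 of 5 healthy libraries of day 25. Ranked by counts, 14 libraries held the order bta-miR-141, bta-miR-375, bta-miR-200a, bta-miR-205, bta-miR-429, bta-miR-200b and bta-miR-200c.

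Levels of single miRNAs are given below as CPM scaled by TMM, a method that sets libraries to a common level by the bulk of their miRNAs. The spread between cows was wide for each of the 7. For bta-miR-141 the highest library of a group was 5.36 to 19.7 times its lowest, and for bta-miR-205 it was 5.74 to 57.1 times the lowest.

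**Figure D2:**
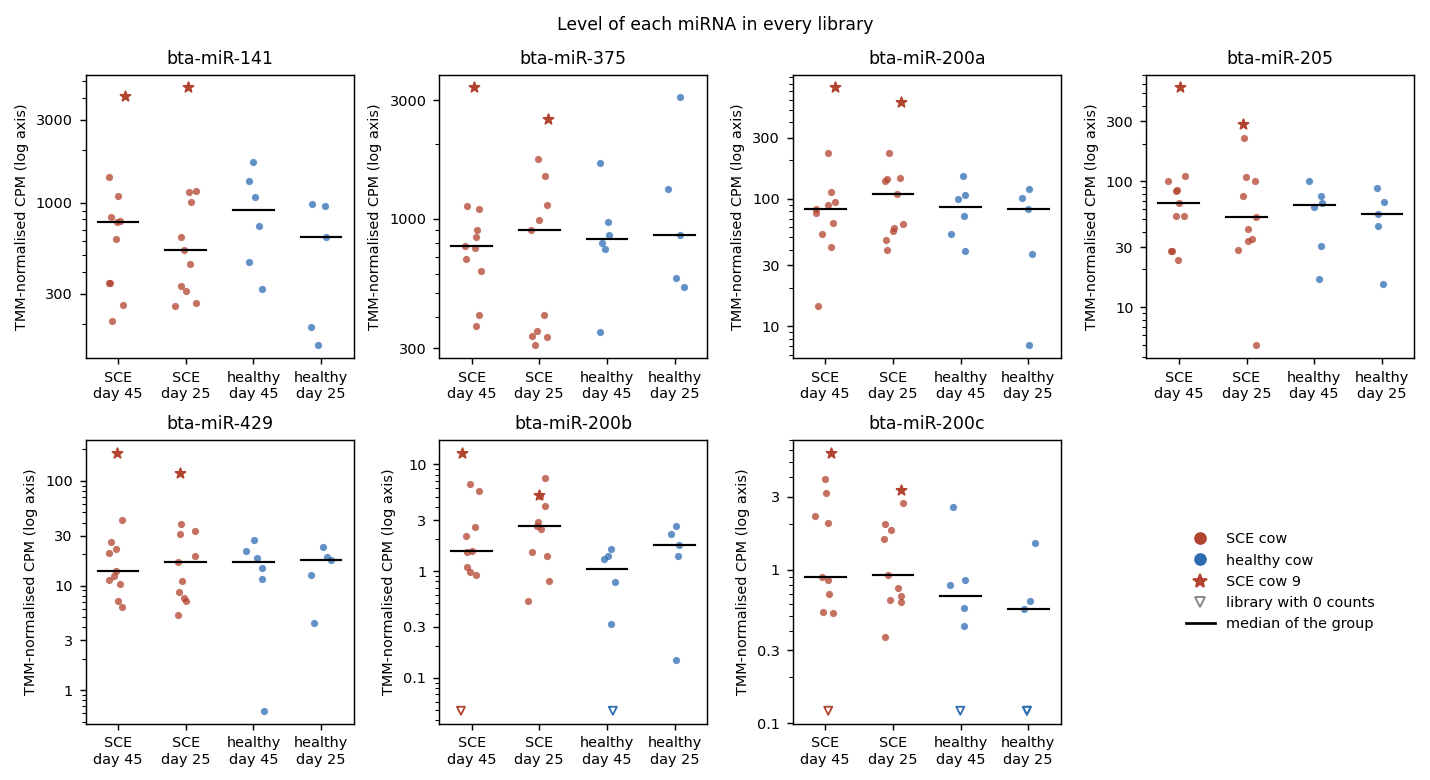
Level of each of the 7 miRNAs in every library, in TMM-normalised CPM on a log axis, with 1 point per library, a bar at the median of each group and a star for SCE cow 9. Open triangles mark libraries with 0 counts and are set below the lowest value above 0. SCE and healthy points overlap in every panel, and the star is the highest SCE point in all panels at day 45.

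At day 25, the comparison that asks whether status shows early, SCE cows had higher fitted levels than healthy cows for 6 of the 7 miRNAs, and none of the 7 passed the test. Medians did not all go the same way as the fits. The SCE median was below the healthy median for bta-miR-141, bta-miR-429 and bta-miR-205. It was above for bta-miR-200a, bta-miR-200b, bta-miR-200c and bta-miR-375. bta-miR-141 ranged from 256 to 4586 CPM in SCE cows at day 25 (median 535), against 192, 633, 151, 981 and 961 CPM in healthy cows 1, 2, 4, 5 and 6. SCE cows 9, 10, 11 and 13 lay above every healthy cow and the other 7 overlapped with them. Its log2 fold change was 0.71 ± 0.66 (SE; edgeR adjusted p = 0.542).

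bta-miR-200c, its low partner, ranged from 0.363 to 3.33 CPM in SCE cows at day 25 (median 0.929), against 1.4996, 0, 0, 0.625 and 0.560 CPM in healthy cows 1, 2, 4, 5 and 6. SCE cows 8, 9, 11, 13 and 15 lay above every healthy cow, and 10 of 11 lay above the healthy median. Its log2 fold change of 1.37 ± 0.79 was the largest of the 7 at this day (SE; edgeR adjusted p = 0.325). The value rests on few reads, with 1 to 72 counts in SCE cows and 0 to 15 in healthy cows, and without healthy cow 1 it was 2.30.

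In the cluster of MIR200B, MIR200A and MIR429, bta-miR-200a ranged from 39.5 to 570 CPM in SCE cows at day 25 (median 109), against 36.8, 118, 7.08, 101 and 83.4 CPM in healthy cows 1, 2, 4, 5 and 6. SCE cows 8, 9, 10, 11 and 13 lay above every healthy cow, and healthy cow 4 was the lowest of all. The log2 fold change was 1.04 ± 0.65 (SE; edgeR adjusted p = 0.366).

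bta-miR-200b ranged from 0.523 to 7.47 CPM in SCE cows at day 25 (median 2.66), against 1.77, 2.66, 0.147, 1.37 and 2.24 CPM in healthy cows 1, 2, 4, 5 and 6. SCE cows 7, 8, 9, 10, 11 and 13 lay above every healthy cow, cow 7 by a margin smaller than rounding shows. bta-miR-200b had only 7 counts in SCE cow 7 and 11 in SCE cow 10, the highest, against 30 in healthy cow 2. Its log2 fold change was 0.84 ± 0.64 (SE; edgeR adjusted p = 0.482).

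bta-miR-429 ranged from 5.20 to 119 CPM in SCE cows at day 25 (median 16.97), against 12.5, 23.1, 4.42, 18.7 and 17.4 CPM in healthy cows 1, 2, 4, 5 and 6. The medians were nearly equal, and SCE cows 8, 9, 11 and 13 lay above every healthy cow. Between statuses the log2 fold change was 0.80 ± 0.66 (SE; edgeR adjusted p = 0.511).

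Outside the family, bta-miR-205 ranged from 4.97 to 284 CPM in SCE cows at day 25 (median 51.8), against 55.2, 88.0, 15.3, 44.4 and 68.8 CPM in healthy cows 1, 2, 4, 5 and 6. SCE cows 7, 8, 9 and 11 lay above every healthy cow and cow 14 lay below all of them. In the fit this gave a log2 fold change of 0.69 ± 0.66 (SE; edgeR adjusted p = 0.544).

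bta-miR-375 was the exception in the sign of the fit, while its SCE median lay above the healthy median of 859 CPM. It ranged from 308 to 2514 CPM in SCE cows at day 25 (median 901), against 859, 3081, 576, 531 and 1318 CPM in healthy cows 1, 2, 4, 5 and 6. No SCE cow lay above healthy cow 2, and 5 SCE cows lay below every healthy cow. The fitted log2 fold change was -0.44 ± 0.53 (SE; edgeR adjusted p = 0.680), and without healthy cow 2 it was 0.17.

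Read against all miRNAs at day 25, edgeR called 1 of 372 miRNAs tested (0.269%), and that was bta-miR-425-3p, named here after its value was seen, with a log2 fold change of 2.23. None of the 7 was called. At an unadjusted p under 0.05 the share was 20.2% of all miRNAs tested and 0 of the 7. A fold change above 0 was found for 47.8% of all and for 6 of the 7. The median log2 fold change was 0.80 over the 7 miRNAs and -0.05 over all 372, and DESeq2, which called 14 of the 522 miRNAs it gave an adjusted p, called none of the 7.

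At day 45 all 7 fitted fold changes were positive, from 0.05 to 1.75, and again none passed. This comparison asks whether status shows at the later sampling. Medians again differed from the fits. The SCE median was below the healthy median for bta-miR-141, bta-miR-200a, bta-miR-429 and bta-miR-375. It was above for bta-miR-200b, bta-miR-200c and bta-miR-205.

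For bta-miR-141 the lowest, median and highest levels at day 45 were 208, 769 and 4092 CPM in SCE cows, against 319, 909 and 1709 CPM in healthy cows. Cow 9 alone of the SCE cows lay above every healthy cow, and 2 SCE cows lay below all of them. edgeR put the log2 fold change at 0.05 ± 0.50 (SE; edgeR adjusted p = 0.982).

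bta-miR-200c had 0, 0.893 and 5.79 CPM as lowest, median and highest at day 45 in SCE cows, against 0, 0.676 and 2.58 CPM in healthy cows. SCE cows 9, 10 and 12 lay above every healthy cow, cow 10 with 3 counts. That is a log2 fold change of 1.07 ± 0.83 (SE; edgeR adjusted p = 0.675), and without healthy cow 2 it was 1.88.

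bta-miR-200a had 14.6, 82.9 and 747 CPM as lowest, median and highest at day 45 in SCE cows, against 38.8, 86.8 and 152 CPM in healthy cows. Cows 9 and 11 lay above every healthy cow, and cow 8 lay below all. The log2 fold change was 0.72 ± 0.57 (SE; edgeR adjusted p = 0.675).

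bta-miR-200b came nearest to the threshold at day 45. Its lowest, median and highest levels were 0, 1.53 and 12.9 CPM in SCE cows, against 0, 1.04 and 1.61 CPM in healthy cows. SCE cows 9, 10, 11, 12 and 13 lay above every healthy cow and the rest overlapped, with 5 counts behind the value of cow 10. Between statuses the log2 fold change was 1.75 ± 0.84 (SE; edgeR p = 0.0481, adjusted p = 0.471).

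bta-miR-429 had 6.20, 13.9 and 186 CPM as lowest, median and highest at day 45 in SCE cows, against 0.637, 16.7 and 27.0 CPM in healthy cows. The SCE median was the lower one, while cows 9 and 11 lay above every healthy cow. In the fit this gave a log2 fold change of 1.02 ± 0.67 (SE; edgeR adjusted p = 0.645).

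bta-miR-205 had 23.6, 67.3 and 558 CPM as lowest, median and highest at day 45 in SCE cows, against 16.9, 65.4 and 102 CPM in healthy cows. Only SCE cows 9 and 10 lay above every healthy cow. The fitted log2 fold change was 0.83 ± 0.56 (SE; edgeR adjusted p = 0.645).

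bta-miR-375 had 368, 772 and 3375 CPM as lowest, median and highest at day 45 in SCE cows, against 350, 828 and 1676 CPM in healthy cows. Cow 9 alone lay above every healthy cow. edgeR put the log2 fold change at 0.14 ± 0.41 (SE; edgeR adjusted p = 0.946).

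Of 382 miRNAs tested at day 45 edgeR called none (0%). DESeq2 gave an adjusted p to 748 and called 1, which was not one of the 7. At an unadjusted p under 0.05 edgeR had 10.2% of all miRNAs tested and 1 of the 7, bta-miR-200b. A fold change above 0 was found for 57.1% of all and for 7 of 7. The median log2 fold change was 0.83 over the 7 and 0.11 over all 382. In the DESeq2 fit 2 of the 7 depended on how cow 9 was treated, because DESeq2 replaced its 9299 counts of bta-miR-200a by 1066 and its 2309 counts of bta-miR-429 by 212, after which the log2 fold changes were 0.01 and 0.18.

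With both days of each cow summed, 6 of 7 fold changes were again positive and none of the 7 was called. bta-miR-200b had a log2 fold change of 1.37 ± 0.57 (SE; 95% interval 0.20 to 2.55; edgeR p = 0.0240, adjusted p = 0.239). bta-miR-200c had 1.42 ± 0.59 (SE; 95% interval 0.19 to 2.64; edgeR p = 0.0251, adjusted p = 0.244). For these 2 DESeq2 gave unadjusted p = 0.0119 and p = 0.0103 and, having filtered them out for low counts, no adjusted p.

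The remaining 5 summed fold changes had intervals that included 0. They were 1.002 ± 0.65 for bta-miR-429, 0.87 ± 0.50 for bta-miR-200a and 0.70 ± 0.49 for bta-miR-205 on the log2 scale. bta-miR-141 stood at 0.34 ± 0.49 and bta-miR-375 at -0.14 ± 0.39 (SE; edgeR adjusted p between 0.345 and 0.883 for the 5). The 2 scarcest miRNAs, at medians of 14 and 10 counts, had the highest of the 7 fold changes and the 2 most abundant the lowest. Between them the order did not follow abundance throughout, as bta-miR-200a stood above the scarcer bta-miR-205.

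Over all 418 miRNAs tested on summed counts, edgeR called 1 (0.239%), again bta-miR-425-3p, with a log2 fold change of 2.06. Unadjusted p under 0.05 was reached by 16.5% of all and by 2 of the 7. Fold changes were above 0 for 53.1% of all and for 6 of the 7, and the median log2 fold change was 0.87 over the 7 and 0.04 over all 418. The summed counts hold the same libraries as the 2 single-day comparisons, so the 3 sets of values are not independent.

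**Figure D3:**
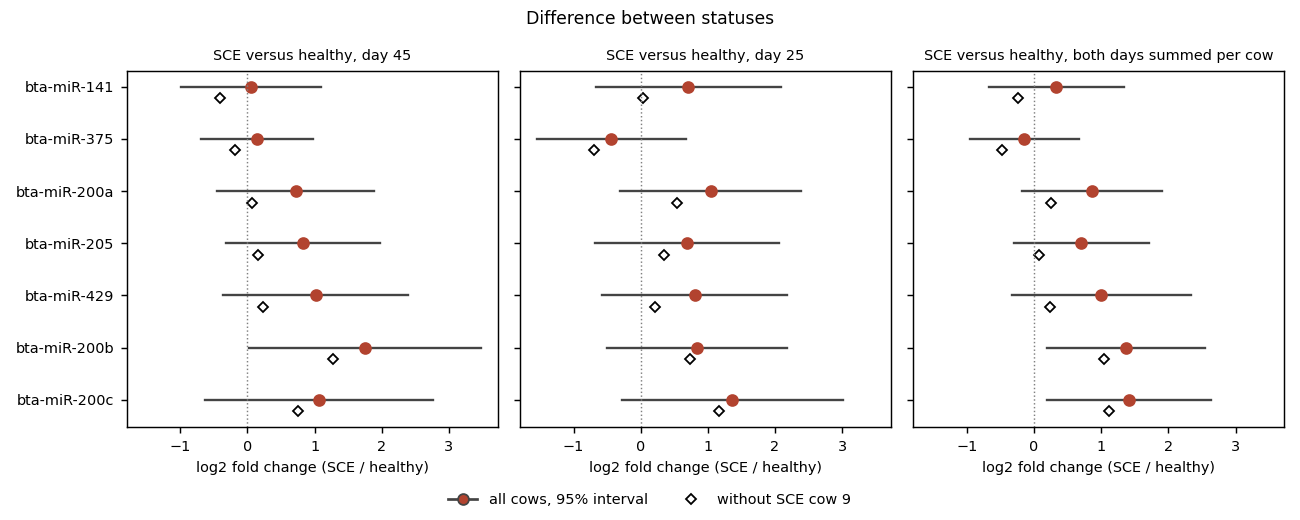
Log2 fold change of SCE over healthy cows for each of the 7 miRNAs at day 45, at day 25 and with both days summed per cow, with the 95% interval of the edgeR fit as a bar and the value without SCE cow 9 as an open diamond. The intervals of bta-miR-200b and bta-miR-200c on summed counts and of bta-miR-200b at day 45 lie above 0. Intervals are not adjusted for the number of miRNAs tested. The diamonds of bta-miR-141 lie at -0.41, 0.04 and -0.23.

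SCE cow 9 stood apart for all 7 miRNAs. It was the highest SCE cow for 7 of 7 at day 45 and for 6 of 7 at day 25, the exception being bta-miR-200b, where cow 10 was higher. Over the 334 miRNAs with 10 or more counts in at least 17 libraries, it was the highest SCE cow for 20.7% at day 45 and for 21.9% at day 25. Its libraries held 8041360 counts at day 45 and 7880365 at day 25, near the SCE medians, and miR-486 took 3.95% of its counts at day 45 and 27.8% at day 25. The 7 miRNAs took 1.39% of its counts at day 45 and 0.893% at day 25.

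The second-highest SCE cow differed between miRNAs. SCE cow 11 was second for bta-miR-141, bta-miR-200a and bta-miR-429 at both days. For bta-miR-375 it ranked at number 4 of the 11 SCE cows at both days.

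Leaving out cow 9 lowered every status fold change. On summed counts bta-miR-141 then stood at -0.23, bta-miR-429 at 0.24, bta-miR-205 at 0.07, bta-miR-200a at 0.26 and bta-miR-375 at -0.48 on the log2 scale. bta-miR-200b and bta-miR-200c kept 1.04 and 1.11. At day 45 bta-miR-141 and bta-miR-375 turned to -0.41 and -0.18, and bta-miR-200a stood at 0.07. No left-out cow brought any of the 7 past the threshold.

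The red blood cell miRNAs are given beside these values, and edgeR called none of the 5 between statuses. The 5 names of that list, all detected, took a median of 37.7% of counts in SCE cows at day 45 (range 4.67% to 55.6%), 12.7% in SCE cows at day 25 (5.13% to 79.7%), 49.0% in healthy cows at day 45 (15.9% to 73.3%) and 46.1% in healthy cows at day 25 (25.1% to 82.1%). On summed counts the log2 fold change was -1.44 for miR-486 (edgeR p = 0.00566, adjusted p = 0.191), -0.55 for miR-451 and -0.02 for miR-16b, all 3 of which are abundant in red cells. Of the 5, 2 had fold changes above 0 at day 25, 2 at day 45 and 1 on summed counts, and their part in the values of the 7 miRNAs was not tested.

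With the log2 ratio of miR-486 to miR-23a, a measure of red cell RNA, as a covariate, the status fold changes moved in opposite directions at the 2 days. At day 25 all 7 were larger, at 2.28 for bta-miR-200c, 1.73 for bta-miR-200b and 0.37 for bta-miR-375. At day 45 bta-miR-200a, bta-miR-141, bta-miR-429, bta-miR-205 and bta-miR-375 turned negative, at -0.52, -0.85, -0.26, -0.32 and -0.34, while bta-miR-200b and bta-miR-200c were at 0.70 and 0.84. None of the 7 passed in these fits, by edgeR with adjusted p of 0.344 or more. With the covariate bta-miR-425-3p was not called either (day 25, log2 fold change 1.202, edgeR adjusted p = 0.252), and the 1 miRNA called at day 25 was bta-miR-11979, lower in SCE cows and named after its value was seen. On summed counts bta-miR-141 was at -0.36 and bta-miR-375 at 0.03. The ratio itself differed between statuses. Its median at day 25 was 5.57 in SCE cows (3.77 to 12.1) and 9.69 in healthy cows (8.42 to 12.4). Its median at day 45 was 8.49 in SCE cows (3.89 to 9.52) and 10.3 in healthy cows (6.51 to 12.4). Status and the ratio could thus be told apart only in part in these fits.

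Over all 17 cows no relation of the 7 miRNAs to that ratio or to depth passed. Over 17 cows the Spearman correlation with the log2 ratio of miR-486 to miR-23a ran from -0.395 for bta-miR-200c to 0.302 for bta-miR-375. With the total count it ran from -0.159 for bta-miR-200b to 0.382 for bta-miR-205. All 14 relations missed the threshold (permutation test, lowest adjusted p = 0.736), and they were computed after the levels had been seen.

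The relation to the total count of a cow was also computed within each status, and 5 of the 7 passed by r in healthy cows. In the 11 SCE cows Spearman's rho ran from -0.364 to 0.282 and Pearson's r from -0.422 to 0.0145, and none of the 7 passed (permutation test, adjusted p = 0.959 for r and 0.989 for rho). In the 6 healthy cows rho ran from 0.657 for bta-miR-375 to 0.943 for bta-miR-429, all 7 positive. Those that passed by r were bta-miR-200a (0.948), bta-miR-205 (0.905), bta-miR-141 (0.899), bta-miR-429 (0.897) and bta-miR-200b (0.890), with adjusted p of 0.0194 to 0.0467 by exact permutation test over the 7. By rho none of the 7 passed (exact permutation test, lowest adjusted p = 0.0778). Healthy cow 3, with 1 library, had the lowest total and healthy cow 5 the highest, and without these 2 cows r was 0.249 to 0.813 over the 7. The difference between statuses was not tested. The share of all miRNAs that pass the same test is not given here, so 5 of 7 has no background to be read against.

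Scaling changed the size of all status differences. When library totals alone set the scale, the median log2 fold change of all miRNAs moved to 0.88 at day 25, 0.71 at day 45 and 0.77 on summed counts. Under that scaling edgeR called bta-miR-200c at day 25 (2.54, adjusted p = 0.0448) and, on summed counts, bta-miR-200b (2.25, adjusted p = 0.0210) and bta-miR-200c (2.29, adjusted p = 0.0241), among 48 and 64 miRNAs called, all higher in SCE cows. bta-miR-375 took a positive sign there, at 0.39 at day 25 and 0.70 on summed counts, which lay below the shift of all miRNAs.

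Between the 2 samplings no change of the 7 miRNAs passed the test in SCE cows. The log2 fold changes of day 45 over day 25 were -0.12 for bta-miR-200a, -0.04 for bta-miR-200b, 0.11 for bta-miR-429, 0.19 for bta-miR-200c, -0.06 for bta-miR-141, 0.10 for bta-miR-205 and -0.10 for bta-miR-375, with SE between 0.38 and 0.56. The widest 95% interval, that of bta-miR-200b, ran from -1.20 to 1.11, so a change of 1 on the log2 scale lay within it. Adjusted p by edgeR were 0.933 or more.

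Of 346 miRNAs tested between days in SCE cows, edgeR called none (0%), and DESeq2 called none of 773. At an unadjusted p under 0.05 edgeR had 4.05% of all and 0 of the 7, and fold changes were above 0 for 41.6% of all and for 3 of the 7. The signs of the 7 were not stable, since with DESeq2 size factors or library totals all 7 were positive, and with the cow as a block bta-miR-200a, bta-miR-200b and bta-miR-200c were negative.

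In healthy cows 6 of the 7 could be tested between days, because bta-miR-200c did not pass the filter on low counts over the 11 healthy libraries. The log2 fold changes of day 45 over day 25 were 0.71 ± 0.53 for bta-miR-141, 0.30 ± 0.57 for bta-miR-200a, -0.91 ± 0.93 for bta-miR-200b, -0.03 ± 0.65 for bta-miR-429, 0.03 ± 0.52 for bta-miR-205 and -0.58 ± 0.54 for bta-miR-375 (SE). The adjusted p by edgeR was 0.9999 for all 6. bta-miR-141 had 1336, 455, 1080, 1709 and 738 CPM at day 45 in healthy cows 1, 2, 4, 5 and 6, against 192, 633, 151, 981 and 961 CPM at day 25. It was higher at day 45 in 3 of those 5 cows, most in cows 1 and 4.

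Of 345 miRNAs tested between days in healthy cows, edgeR again called none (0%), and DESeq2 called none of 695. At an unadjusted p under 0.05 edgeR had 2.9% of all and 0 of 6, and fold changes were above 0 for 52.8% of all and for 3 of 6.

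The difference of the day effect, SCE minus healthy, was tested directly. It ran from -0.68 ± 0.87 for bta-miR-141 to 0.87 ± 1.06 for bta-miR-200b on the log2 scale (SE; edgeR adjusted p = 0.988 for all 7). edgeR called none of 406 miRNAs (0%) and DESeq2 none of 791. In edgeR 1.72% of all and 0 of the 7 had an unadjusted p under 0.05. Differences above 0 were found for 50.2% of all and for 4 of the 7. SE ran from 0.70 to 1.13, and the widest 95% interval, that of bta-miR-200c, ran from -2.63 to 1.95.

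**Figure D4:**
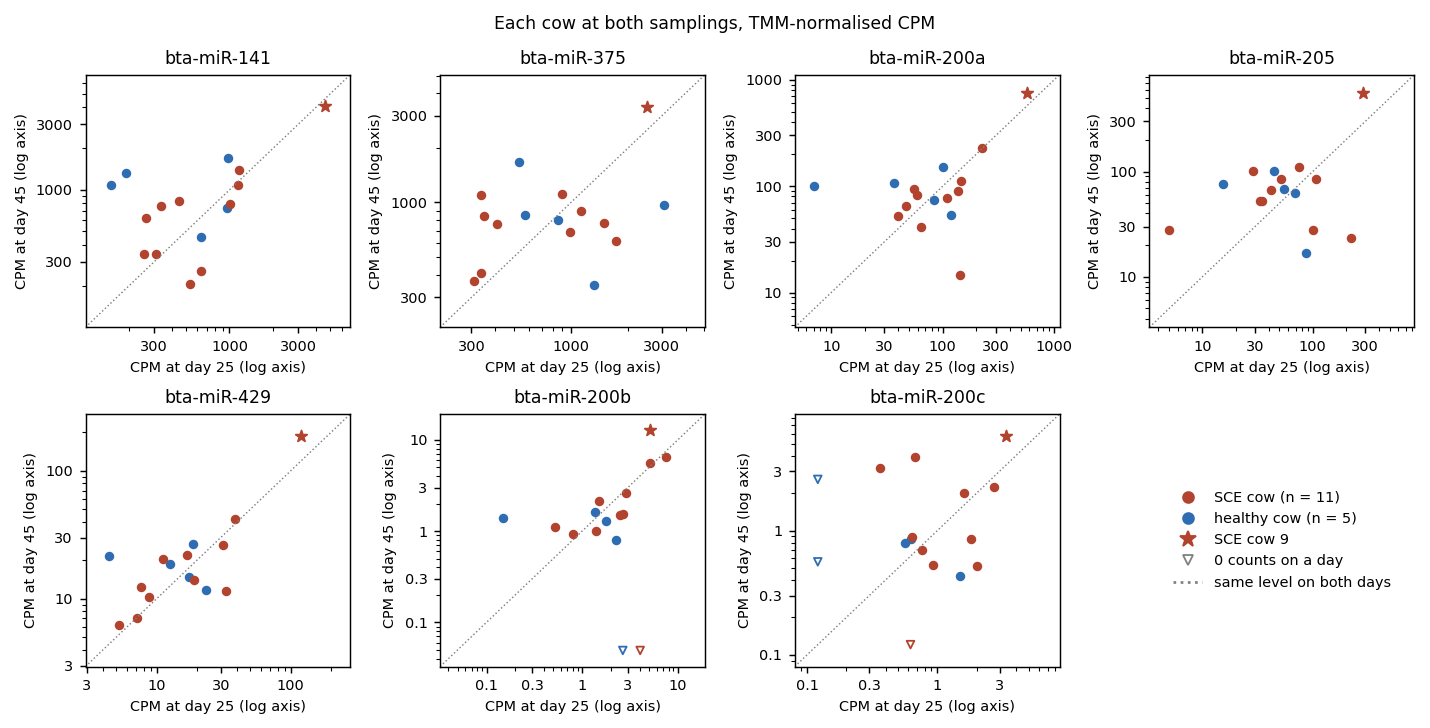
Level of each of the 7 miRNAs at day 45 against day 25 in the 16 cows with both libraries, in TMM-normalised CPM on log axes, with the dotted line where both days are equal. Triangles mark cows with 0 counts on a day, drawn below the lowest value above 0. The points of bta-miR-429 line up most closely, at r = 0.746, and those of bta-miR-200c least, at r = 0.115.

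The level of a cow at one day was set against its level at the other, and 1 of the 7 miRNAs passed by r and none by rho. These correlations were added after the levels had been seen, and 7 were computed. For bta-miR-429 the level at day 45 correlated with that at day 25 at Pearson's r = 0.746 over 16 cows (permutation test, adjusted p = 0.0104) and Spearman's rho = 0.518 (adjusted p = 0.295), and without cows 9 and 4, the farthest from the median, r was 0.682. In the 11 SCE cows alone rho was 0.818 for bta-miR-429 (permutation test, adjusted p = 0.0238 over the 7), 0.682 for bta-miR-200b, 0.627 for bta-miR-141 and 0.564 for bta-miR-200a. It was 0.355 for bta-miR-375, 0.227 for bta-miR-205 and 0.173 for bta-miR-200c, and these 6 had adjusted p of 0.0879 or more by permutation test. Whether these correlations differ between miRNAs was not tested. The same correlations over all miRNAs are not given here, so whether 1 of 7 is unusual cannot be told.

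Over the 16 cows the other 6 did not pass on either measure. bta-miR-141 had r = 0.475 and rho = 0.394, bta-miR-200a had r = 0.370 and rho = 0.271, and bta-miR-375 had r = 0.323 and rho = 0.174. bta-miR-200b had r = 0.253 and rho = 0.434, bta-miR-205 had r = 0.250 and rho = 0.0706, and bta-miR-200c had r = 0.115 and rho = 0.0589. By permutation test the adjusted p of these 6 were 0.223 or more for r and 0.308 or more for rho. For bta-miR-205 r was -0.519 without cows 14 and 9, so its positive sign rested on them.

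Most pairs of the 7 miRNAs were correlated over cows. With both days summed, all 21 pairs had a positive Spearman correlation over 17 cows, from 0.336 to 0.887 with a median of 0.664. Of the 21 pairs, 16 passed by rho and 20 by Pearson's r (permutation test, adjusted over the 21 pairs), so 5 missed the threshold by rho. For comparison, the median rho over all 55611 pairs of 334 miRNAs was 0.00735, with quartiles of -0.294 and 0.316. Of those pairs 23.6% lay above the lowest of the 21 and 4.88% above their median. All values of a cow come from the same libraries and scaling, and the same SCE cow 9 is high in all 7.

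**Figure D5:**
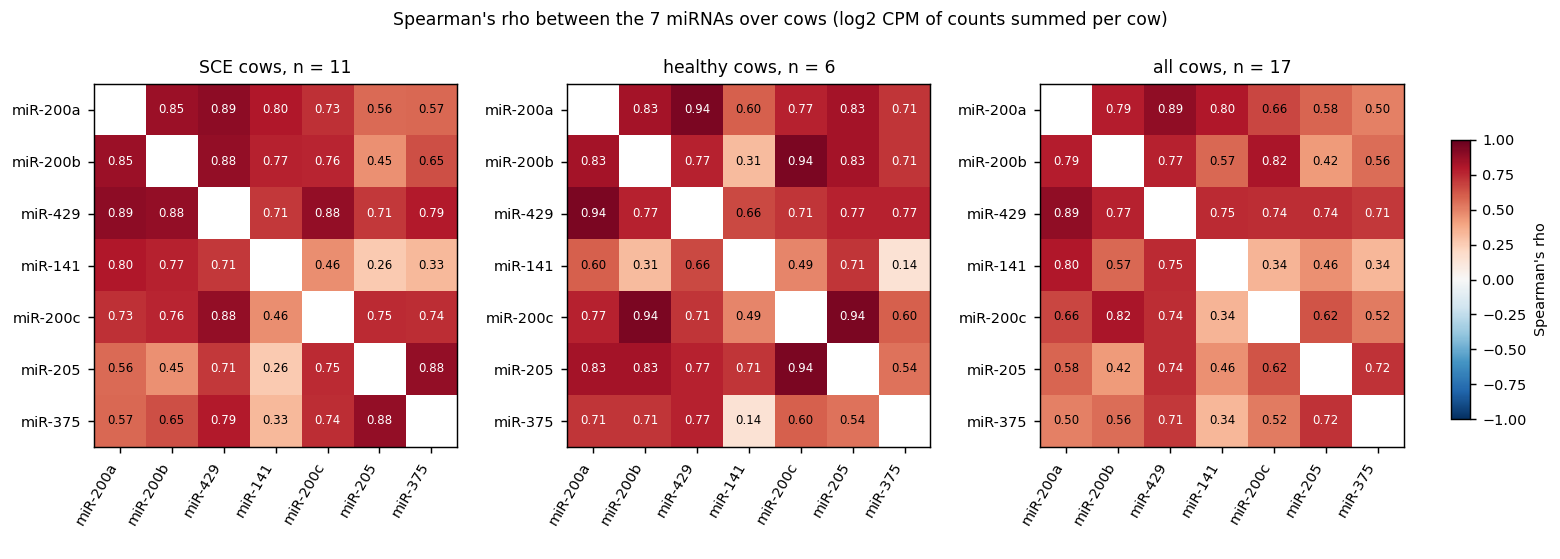
Spearman's rho between each pair of the 7 miRNAs in 11 SCE cows, 6 healthy cows and all 17 cows, on log2 CPM of counts summed over the days of a cow. All cells are positive, and the lowest values over 17 cows are 0.336 for bta-miR-141 with bta-miR-375 and 0.338 for bta-miR-141 with bta-miR-200c.

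By rho the positive signs were seen within each status. In SCE cows rho ran from 0.264 to 0.891 (median 0.736) and in healthy cows from 0.143 to 0.943 (median 0.714). Without the 2 cows farthest from the median of the first miRNA of a pair, r stayed above 0 in 21 of 21 pairs. Of these, 12 had an unadjusted p under 0.05 by permutation test. Within status r was not positive throughout, at -0.064 for bta-miR-141 with bta-miR-375 in healthy cows. In the healthy cows 5 of the 7 miRNAs were also correlated with the total count by r, a count without a share over all miRNAs beside it. The part of depth in these pairs was not tested.

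The tightest pair by rho was bta-miR-200a with bta-miR-429 of the same gene cluster, at rho = 0.887 and r = 0.854 (permutation test, adjusted p for rho = 0.00042), and r was 0.785 without cows 9 and 11. By r the highest pairs were of different clusters, bta-miR-200a with bta-miR-141 (0.897) and bta-miR-200c with bta-miR-429 (0.894). Next by r came bta-miR-200a with bta-miR-200b of the same cluster (0.863). bta-miR-200b with bta-miR-200c, which share a seed but come from different clusters, had rho = 0.816 and r = 0.847 (adjusted p for rho = 0.00105, permutation test). bta-miR-200a with bta-miR-141, also of 1 seed and 2 clusters, had rho = 0.804 and r = 0.897 (adjusted p for rho = 0.00105, permutation test).

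One pair within a gene cluster was among the 5 that missed the threshold. bta-miR-141 and bta-miR-200c, side by side in the genome, had rho = 0.338 and r = 0.535 over 17 cows (permutation test, adjusted p for rho = 0.188), and r without cows 3 and 9 was 0.0990. The 4 pairs within clusters had a median rho of 0.779 and the 17 other pairs a median of 0.625. That difference was not tested.

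bta-miR-141 and bta-miR-375 had the lowest medians over their 6 pairs. For bta-miR-141 the median rho was 0.515, from 0.336 with bta-miR-375 to 0.804 with bta-miR-200a, and 3 of its 6 pairs passed by rho. For bta-miR-375 it was 0.539, from 0.336 with bta-miR-141 to 0.723 with bta-miR-205, and 4 of 6 passed. bta-miR-429 had the highest median, 0.743, with 6 of 6. These medians share pairs and were not tested against each other.

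Among the 327 other miRNAs with enough counts, those with the most similar pattern over the 17 cows were found by rho, given here as a description. bta-miR-200a was closest to bta-miR-224 (0.836) and bta-miR-214 (0.824), and bta-miR-429 to bta-miR-224 (0.863) and bta-miR-502a (0.809). bta-miR-200b was closest to bta-miR-335 (0.806) and bta-miR-126-3p (0.728), and bta-miR-200c to bta-miR-30f (0.873) and bta-miR-335 (0.838). bta-miR-224, bta-miR-335 and bta-miR-214 each came up for 2 of the 7.

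bta-miR-141 was closest to bta-miR-214 (0.858) and bta-miR-665 (0.804). bta-miR-205 had the weakest closest partners, bta-miR-34c (0.654) and bta-miR-2285t (0.650). bta-miR-375 was closest to bta-miR-378 (0.765) and bta-miR-153 (0.743). For bta-miR-200a, bta-miR-200b, bta-miR-429 and bta-miR-205, another of the 7 was closer than any of the 327.

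A list of other miRNAs known from epithelia had negative median fold changes. Of its 14 names 12 were in the files, and 7 or 8 could be tested. Their median log2 fold change of SCE over healthy cows was -0.46 at day 25 (0 of 7 above 0), -0.28 at day 45 (3 of 7) and -0.20 on summed counts (2 of 8), and edgeR called none. The 3 most abundant, bta-miR-192, bta-miR-194 and bta-miR-215, which are known from gut, kidney and liver, had -0.87, 0.03 and -0.40 on summed counts. The list summed to a median of 3.03% of counts in SCE cows at day 45 (1.67% to 21.1%), 3.32% in SCE cows at day 25 (1.54% to 12.9%), 4.87% in healthy cows at day 45 (1.52% to 8.93%) and 4.44% in healthy cows at day 25 (1.02% to 8.23%).

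Lists for cells that could add RNA to blood gave these values beside the 7 miRNAs. The 6 white blood cell miRNAs had a median log2 fold change on summed counts of 0.50 with 6 of 6 above 0, and they took a median of 2.999% of counts in SCE cows at day 45 (1.82% to 5.42%), 3.95% in SCE cows at day 25 (0.599% to 5.26%), 1.34% in healthy cows at day 45 (0.922% to 3.48%) and 1.02% in healthy cows at day 25 (0.520% to 4.04%). Their most abundant names had 0.05 (bta-miR-142-5p), 1.66 (bta-miR-150) and 0.48 (bta-miR-223). edgeR called none of them.

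The 8 endothelial and stromal miRNAs had a median log2 fold change of -0.30 with 2 of 8 above 0, and bta-miR-10b, bta-miR-143 and bta-miR-126-5p had -1.70, -0.49 and -0.22. The 3 liver miRNAs had a median of -0.54, with 0.03 for bta-miR-122, -0.54 for bta-miR-148a and -0.87 for bta-miR-192, which is also in the epithelial list. edgeR called none in either list. No name of these lists was at 0 throughout, and their part in the values of the 7 miRNAs was not tested.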

How the data were processed

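Each deposited file gives the counts of reads assigned to each bovine miRNA in a library, as whole numbers whose totals differ between libraries. Per the labels' protocols, the TruSeq kit for small RNA was used on 10 to 20 ng, with 13 or 16 cycles of PCR. No molecular identifiers are named, so the limit given for libraries with no count covers counting error only. The SE and intervals of fold changes come from the edgeR fits and also take in the spread between libraries. Per the submitters' processing notes, bcl2fastq 2.17.1.14, genome build UMD3.1 and DESeq2 were used. The aligner, the way reads were counted and the miRNA annotation were not given in the sources used here.

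Status and day were compared by edgeR's quasi-likelihood test (edgeR 4.0.16, R 4.3.3) after TMM scaling and filterByExpr, at a Benjamini-Hochberg adjusted p of 0.05 over all miRNAs tested, two-sided. The 6 comparisons were fitted on all miRNAs, and DESeq2 1.42.0 was an alternative. The SE was the absolute log2 fold change divided by the square root of F. Correlations over cows used log2 CPM with a prior count of 2 and two-sided permutation tests with 100000 resamples; miRNAs with 10 or more counts in at least 17 of the 33 libraries entered them, 334 with the 7. The fits were also run on simulated counts with known changes, and the outcome is not given here. All 7 miRNAs are named, with the 2 miRNAs most like each and the 3 most abundant of each list. The 7 miRNAs and the lists were chosen with earlier results of these data known.

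Libraries of the 2 days pair by animal. Over the 16 cows with both days, deviations from the group means correlated within a cow at a median r of 0.243, with r over 0.1 in 10 cows. The main comparisons of days were fitted without the cow as a block, and the block was an alternative. Other alternatives were DESeq2 size factors, library totals alone, no filter, each cow left out, and a covariate for red cell RNA (log2 ratio of miR-486 to miR-23a). The 5 healthy libraries at day 25 replace the 6 that the labels describe.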

Additional observations from a re-analysis of the deposited data

Results flagged for a closer look

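One library was marked as far from the rest of its group. bta-miR-200c in healthy cow 2 at day 45 was at 2.58 CPM, from 14 counts, while the nearest of the other 5 healthy cows at that day was at 0.855 CPM. The gap took 0.668 of the range of the group. Of 14 groups tested this was the only one marked, and chance marks about 1 in 20 groups. Those 14 did not take in every group of every miRNA, and unmarked libraries also lay far out. For bta-miR-205 SCE cow 9 was at 558 CPM at day 45, and the next SCE cow, cow 10, was at 110.5 CPM. For bta-miR-375 healthy cow 2 was at 3081 CPM at day 25, and the next healthy cow, cow 6, was at 1318 CPM. The marked library, that of healthy cow 2 at day 45, had no count of bta-miR-200b. Without healthy cow 2 the log2 fold change of bta-miR-200c at day 45 was 1.88 in place of 1.07.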

How the results depend on the processing

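None of the 7 miRNAs passed in any of the 6 comparisons under DESeq2 size factors, no filter, DESeq2 or any left-out cow, in the 3 status comparisons with the ratio covariate, or in the day comparisons and their difference with the cow as a replicate block; with library totals alone 1 passed at day 25 (bta-miR-200c) and 2 on summed counts (bta-miR-200b and bta-miR-200c). For bta-miR-200b and bta-miR-200c on summed counts DESeq2 gave no adjusted p. Over all miRNAs the calls at day 25 were 1 in edgeR, 4 with DESeq2 size factors, 48 with library totals, 6 without a filter, 14 by DESeq2, 1 with the covariate (bta-miR-11979, lower in SCE cows, in place of bta-miR-425-3p, higher) and 0 to 7 with a cow left out. On summed counts they were 1, 64 with library totals, 2 without a filter, 15 by DESeq2, 0 with the covariate and 0 to 10 with a cow left out. At day 45 library totals and DESeq2 each called 1, and without a filter the difference of the day effect had 1. Signs of status fold changes (log2) turned for bta-miR-375 with library totals (0.39 at day 25, 0.70 summed) and with the covariate (0.37 at day 25, -0.34 at day 45, 0.031 summed). With the covariate they also turned for bta-miR-141 (-0.85 at day 45, -0.36 summed), bta-miR-200a (-0.52), bta-miR-429 (-0.26) and bta-miR-205 (-0.32) at day 45. With a cow left out, status fold changes that turned ranged from -0.41 to 0.21 for bta-miR-141 at day 45 and -0.23 to 0.59 summed, and for bta-miR-375 from -0.69 to 0.17 at day 25, -0.18 to 0.38 at day 45 and -0.48 to 0.24 summed. Day changes in SCE cows were near 0 and turned for bta-miR-200a, bta-miR-200b, bta-miR-141 and bta-miR-375: 0.093, 0.14, 0.096 and 0.11 with DESeq2 size factors, 0.13, 0.18, 0.11 and 0.20 with library totals, and 0.090, 0.13, 0.093 and 0.10 by DESeq2. With the cow as a replicate block they turned for bta-miR-200c (-0.073), bta-miR-141 (0.020) and bta-miR-375 (0.12), and with a cow left out the ranges were -0.25 to 0.028 for bta-miR-200a, -0.41 to 0.19 for bta-miR-200b, -0.030 to 0.36 for bta-miR-200c, -0.14 to 0.13 for bta-miR-141, -0.050 to 0.27 for bta-miR-429, -0.17 to 0.49 for bta-miR-205 and -0.19 to 0.17 for bta-miR-375. In healthy cows the day change of bta-miR-205 was -0.051 with DESeq2 size factors and -0.056 by DESeq2, and that of bta-miR-429 was 0.11 with library totals and 0.32 with the block; left-out cows gave -0.33 to 0.29 for bta-miR-429, -0.29 to 0.53 for bta-miR-205 and -1.07 to 0.090 for bta-miR-375. The difference of the day effect for bta-miR-429 was -0.26 with the block, and left-out cows gave -1.45 to 0.64 for bta-miR-200c, -0.19 to 0.48 for bta-miR-429, -0.45 to 0.60 for bta-miR-205 and -0.20 to 0.97 for bta-miR-375. The block changed no call. The cause of these changes was not tested. Of the 21 pairs, 16 passed by rho, 20 with library totals, 11 with the day-45 libraries alone, 16 with a prior count of 0.5 and 11 to 17 with a cow left out. Depth limits bta-miR-200b and bta-miR-200c most, at medians of 14 and 10 counts, and healthy cows at day 25 number 5.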
